A study of Homo sapiens with 12 samples.

Results

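PNMAL1, ARHGEF12, MEF2C, LRP6, LRRC2, GZMA and CDHR1 are 7 of the 43828 gene places in the tables, and were chosen by their exon reads, which were far lower in untreated SLFN11 knockout cells than in untreated parent cells. The cells are CCRF-CEM, a human T lymphoblast leukemia line. SLFN11 is a putative helicase that makes cancer cells sensitive to DNA-damaging drugs, and camptothecin traps topoisomerase I on DNA. The 4 groups, of 3 libraries each, were knockout cells given 100 nM camptothecin for 4 h, wild-type parent cells given the same, knockout cells given the solvent DMSO, and parent cells given DMSO. DMSO-treated cells are called untreated below. Nothing in the labels gives the method of the knockout, or says if it was 1 clone or if replicates were separate cultures. Loss of SLFN11 and any other difference between the cell populations therefore cannot be told apart, and the spread behind each p-value is that between libraries and may be technical.

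Untreated parent replicate 1 was sequenced to 135592046 exon reads and the other 11 libraries to between 42439957 and 63606344, so read numbers of that 1 library are higher for most genes. Levels are given in CPM, exon reads scaled to the size of the library, after TMM scaling, as mean ± SD over 3 libraries. SLFN11 itself had 89.8 ± 1.72 CPM in treated knockout cells and 120 ± 2.34 CPM in treated parent cells. Without drug, knockout cells had 86.9 ± 1.57 CPM against 112 ± 4.95 CPM in the parent. In log2, knockout minus parent (± SE), its exon reads gave -0.42 ± 0.05 with camptothecin and -0.37 ± 0.05 without. Its intron reads went the other way, with 0.64 ± 0.07 and 0.58 ± 0.07 (edgeR adjusted p 1.49e-07 and 9.43e-07). These totals over the whole gene carry no position, so they do not check an edit inside it. All 18 listed T lymphoblast markers were detected in every group. Their summed level was 2043 to 2090 CPM in treated knockout libraries against 1576 to 1594 CPM in treated parent libraries, and 2540 to 2565 CPM in untreated knockout libraries against 2087 to 2335 CPM in untreated parent libraries. The summed level of 7 epithelial and fibroblast markers was 8.78 to 9.38 CPM in treated knockout libraries and 2.41 to 3.21 CPM in treated parent libraries, mostly from EPCAM. Of 12 NK and cytotoxic T cell markers, the sum was 11.4 to 11.7 CPM in treated knockout libraries and 15.8 to 16.6 CPM in treated parent libraries, and NCR1 was at 0 in all 4 groups. Most of that gap came from CD244, with 0.753 ± 0.266 against 4.04 ± 0.334 CPM. Of 7 tested markers of this list, 3 were lower in treated knockout cells and 2, KLRB1 and CD8B, were higher. Over all tested genes, 14.6% were lower and 13.4% higher. The part of these markers in the results below was not tested.

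The 7 genes have unlike roles. MEF2C is a MADS-box transcription factor that is switched on in some T-cell leukemias and is held in check by class IIa histone deacetylases. LRP6 is, with its close relative LRP5, the co-receptor that Frizzled receptors need to pass on a Wnt signal, and ARHGEF12 is an exchange factor that carries the signal of G12/13-coupled receptors towards the actin cytoskeleton. GZMA encodes granzyme A, a serine protease of cytotoxic granules. CDHR1 is a cadherin-related protein known from photoreceptors, LRRC2 is a leucine-rich repeat protein, and PNMAL1, now named PNMA8A, belongs to the paraneoplastic Ma antigen family.

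The stretches around the annotated starts show how different these genes are at the DNA level. RefSeq windows on GRCh38.p14, from 250 bases before to 50 bases after a start, were at hand for 6 of the 7 genes. PNMAL1 and ARHGEF12 are printed because they had at most 2 exon reads in any untreated knockout library, and GZMA because it was the most abundant of the 7 per kilobase. Capitals mark CpG dinucleotides, the sites that can carry DNA methylation.
PNMAL1, chr19:46471514-46471813, minus strand: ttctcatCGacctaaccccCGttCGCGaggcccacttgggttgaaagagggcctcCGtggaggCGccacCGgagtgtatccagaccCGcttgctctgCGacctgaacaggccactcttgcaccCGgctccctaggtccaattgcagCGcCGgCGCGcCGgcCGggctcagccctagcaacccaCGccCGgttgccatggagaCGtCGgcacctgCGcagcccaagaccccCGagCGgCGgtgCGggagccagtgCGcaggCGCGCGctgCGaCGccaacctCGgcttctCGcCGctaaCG
ARHGEF12, chr11:120336163-120336462, plus strand: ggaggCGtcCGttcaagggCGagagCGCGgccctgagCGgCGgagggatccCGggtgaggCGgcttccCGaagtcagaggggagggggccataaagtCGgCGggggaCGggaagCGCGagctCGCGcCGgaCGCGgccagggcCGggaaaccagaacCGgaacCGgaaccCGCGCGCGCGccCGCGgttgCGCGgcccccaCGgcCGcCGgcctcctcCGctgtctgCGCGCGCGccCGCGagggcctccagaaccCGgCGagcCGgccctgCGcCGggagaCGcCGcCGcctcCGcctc
GZMA, chr5:55102396-55102695, plus strand: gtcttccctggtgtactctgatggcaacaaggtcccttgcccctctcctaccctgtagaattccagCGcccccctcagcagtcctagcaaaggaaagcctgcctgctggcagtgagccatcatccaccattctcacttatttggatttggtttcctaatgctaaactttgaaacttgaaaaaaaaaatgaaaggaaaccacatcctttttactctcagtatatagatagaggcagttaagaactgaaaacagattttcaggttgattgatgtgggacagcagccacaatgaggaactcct
The PNMAL1 window held 35 CpG, the ARHGEF12 window 51 and the GZMA window 1, against a median of 14 over 35116 windows. ARHGEF12 has a second start with 3 CpG, and the 7 starts listed for MEF2C held 1 to 32. LRRC2 held 15 and CDHR1 held 19. Thus the 7 genes included CpG-dense and CpG-poor starts. Only the short motifs named next were searched, and none was found in all 6 genes with a window. TGACTCA, read on both strands, was found in LRRC2 and in 1 MEF2C window (4.95% of all windows hold it), GGGCGG only in CDHR1 (45% of all), CAGCTG in 2 MEF2C windows (17.9%) and TATAAA only in the second ARHGEF12 window (11.5%). These matches are letters in a window, and methylation was not measured.

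In untreated cells the knockout values chose the genes, so they are given here as a description. Among 16100 genes with at least 1 CPM on average over the 6 untreated libraries, ordered by the fitted log2 difference of knockout minus parent, PNMAL1 stood first, ARHGEF12 second, MEF2C 6th, LRP6 7th, LRRC2 10th, GZMA 12th and CDHR1 13th. CDHR1, the last inside, had a log2 difference of -3.77. FLJ27365, 16th and outside, had -3.53, and CDC42BPA and ZNF626, 4th and 5th, lay between members without being among them. In these libraries 7.44% of 23546 tested genes were called lower in the knockout and 8.26% higher, at a Benjamini-Hochberg adjusted p below 0.05 in edgeR's quasi-likelihood test. All 7 genes were among those called lower, which the choice fixed.

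**Figure D1:**
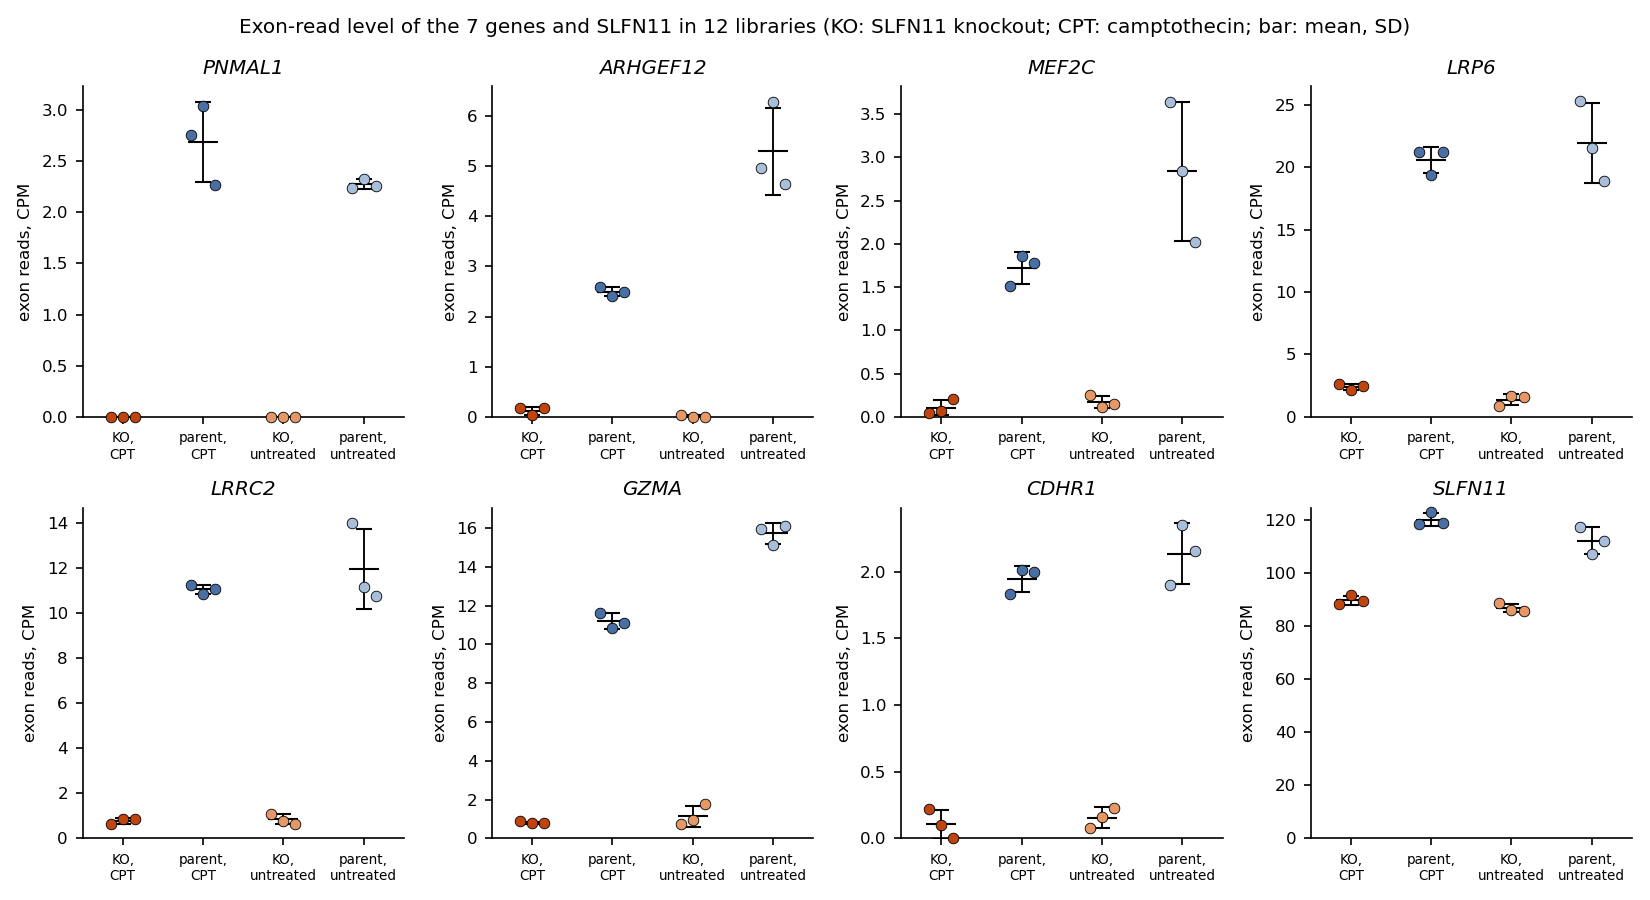
Exon-read level in CPM (linear axis from 0) of the 7 genes and SLFN11 in each of 12 libraries. Points are libraries, bars the mean and SD of 3; knockout (KO) stands left of parent, camptothecin (CPT) left of untreated. All 6 knockout points of each of the 7 genes lie below all 6 parent points, while SLFN11 averages 89.8 and 86.9 CPM in the treated and untreated knockout groups.

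MEF2C, the transcription factor, had 2, 4 and 10 exon reads in treated knockout libraries against 96, 115 and 97 in treated parent libraries. In untreated cells it had 13, 6 and 7 reads in the knockout against 428, 149 and 94 in the parent. The highest knockout library stayed below the lowest parent library, also in CPM. The summed level in knockout cells was 6.11% of the parent with camptothecin and 5.59% without. These shares carry counting intervals of 3.45% to 10.1% and 3.62% to 8.26%. The intervals are exact binomial at 95% and cover counting error only, since the reads had no molecular identifiers.

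LRP6, the Wnt co-receptor, was the most reduced in absolute terms, with 119, 128 and 119 exon reads in treated knockout libraries against 1346, 1196 and 1157 in treated parent libraries. Untreated libraries had 44, 86 and 77 reads in the knockout and 2978, 1130 and 879 in the parent. Its level was 11.6% of the parent with camptothecin (interval 10.4% to 13%) and 5.99% without (interval 5.18% to 6.88%). The untreated exon reads chose the genes, which favours a lower untreated share, so nothing is read from this gap. The gene model of BCL2L14 spans part of LRP6, and the use of strand in counting is not given in the sources used here. Exon reads that fall in no other gene were few, but had the same order: 14, 28 and 8 against 156, 148 and 159 with camptothecin, and 4, 3 and 2 against 254, 117 and 93 without.

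ARHGEF12, the exchange factor downstream of G12/13-coupled receptors, had 8, 2 and 8 exon reads in treated knockout libraries against 164, 149 and 136 in treated parent libraries. Untreated libraries had 2, 0 and 0 in the knockout and 584, 329 and 216 in the parent. A sum of 2 against 1129 reads gave a level of 0.256% of the parent (interval 0.0309% to 0.925%), and with camptothecin it was 4.71% (interval 2.77% to 7.53%).

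GZMA, the granule protease, had 40, 46 and 38 exon reads in treated knockout libraries against 739, 670 and 605 in treated parent libraries. Untreated libraries had 38, 47 and 84 in the knockout and 1878, 791 and 749 in the parent. The knockout level was 7.24% of the parent with camptothecin and 7.13% without, so the shares differed by less than their counting intervals (5.99% to 8.68% and 6.07% to 8.32%).

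LRRC2 had 29, 50 and 41 exon reads in treated knockout libraries against 713, 668 and 604 in treated parent libraries, and 56, 40 and 31 against 1647, 583 and 499 in untreated ones. That was 7.11% and 6.71% of the parent. CDHR1 had 10, 6 and 0 reads in treated knockout libraries against 116, 124 and 109 in treated parent libraries, and 4, 8 and 11 against 223, 123 and 100 in untreated ones. That was 5.39% and 7.44% of the parent, and the lowest knockout library had no read at all. PNMAL1 had no exon read in any of the 6 knockout libraries. Treated parent libraries had 175, 188 and 124, and untreated parent libraries 263, 122 and 105. With a floor of 3 reads over the knockout group, it was at least 138-fold lower with camptothecin and at least 113-fold lower without.

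**Figure D2:**
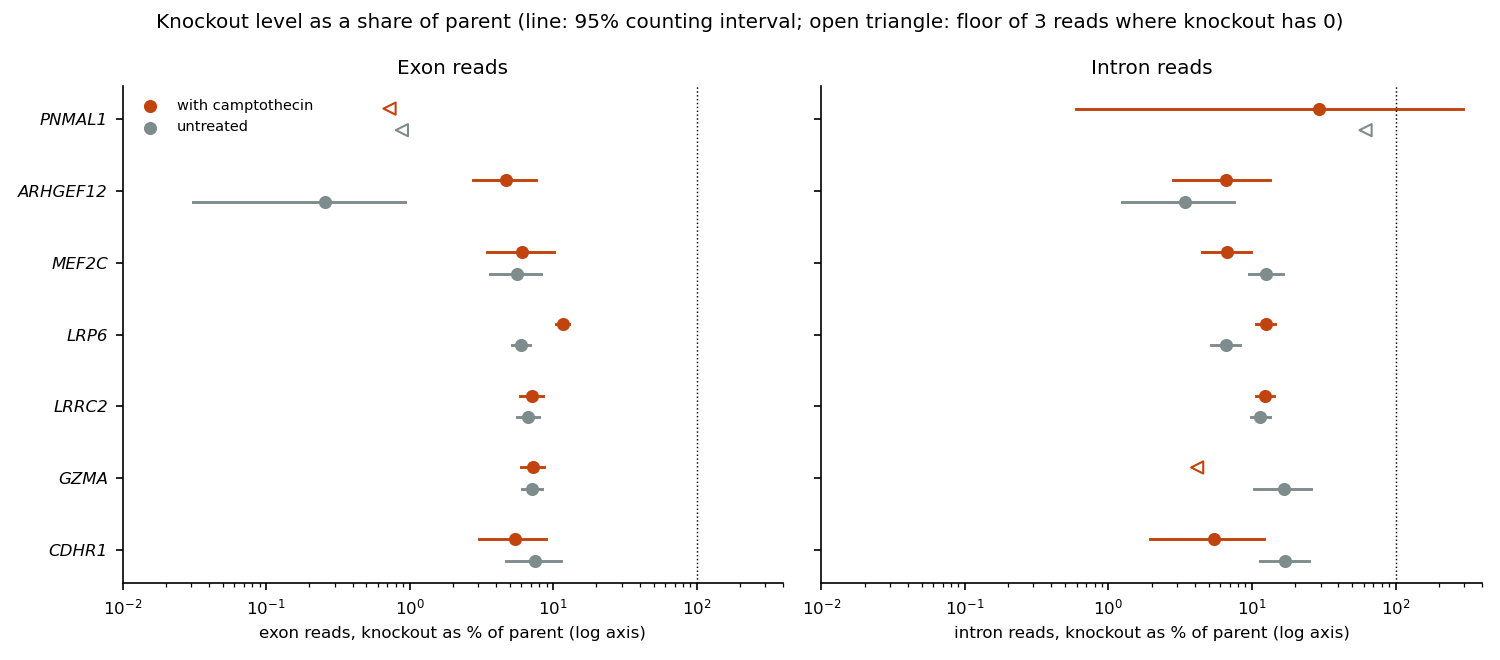
Knockout level as a percentage of the parent level (log axis), from summed exon reads (left) and intron reads (right), with camptothecin above untreated for each gene. Lines are 95% counting intervals, and an open triangle marks the floor of 3 reads where the knockout had 0. Exon shares of 5 genes lie between 5.39% and 11.6% in both conditions, ARHGEF12 is at 0.256% untreated and 4.71% with camptothecin, and the floor of PNMAL1 is at 0.883% untreated and 0.724% with camptothecin.

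Per kilobase of exon, the order of levels was almost the same in both genotypes. In untreated parent cells GZMA led with 17.6 ± 0.611 CPM per kb, and LRRC2 (2.13 ± 0.315) and LRP6 (2.12 ± 0.31) did not differ beyond their spread. PNMAL1 followed with 0.616 ± 0.0134, then CDHR1 with 0.345 ± 0.0369 and MEF2C with 0.333 ± 0.0948, which did not differ beyond their spread either, and ARHGEF12 with 0.224 ± 0.0366. This put the 7 genes between the 12.1 and the 86.4 percentile of all tested genes. In untreated knockout cells GZMA was again first with 1.28 ± 0.605 CPM per kb, then LRRC2 with 0.15 ± 0.0401 and LRP6 with 0.134 ± 0.0447. CDHR1 had 0.0251 ± 0.0123, MEF2C 0.0203 ± 0.00833 and ARHGEF12 0.000547 ± 0.000948, and only PNMAL1 changed place, to 0.

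The rule that chose the genes used untreated libraries alone, and treated knockout and treated parent cells give the same comparison in other libraries. This comparison is not an independent test, since the genes were chosen with earlier results of these data known. All 7 genes were lower in treated knockout cells, against a background of 14.6% of the 23546 tested genes called lower and 13.4% called higher. The log2 difference was -3.1 ± 0.17 (SE) for LRP6, the smallest, with an adjusted p of 1.24e-09 in edgeR's quasi-likelihood test. It was -3.78 ± 0.2 for GZMA (6.05e-10), -3.82 ± 0.17 for LRRC2 (5.79e-11) and -4.0 ± 0.41 for MEF2C (1.07e-06). CDHR1 had -4.18 ± 0.46 (3.01e-06) and ARHGEF12 -4.37 ± 0.36 (8.1e-08). PNMAL1, with no knockout read, had an adjusted p of 1.43e-08. Of 16214 genes with at least 1 CPM on average over the 6 treated libraries, PNMAL1 was again first in order of the fitted difference, ARHGEF12 6th, CDHR1 7th, LRRC2 11th, GZMA 12th and LRP6 21st; MEF2C, at 0.912 CPM, fell under that level. The median log2 difference of the 7 was -4.0 and that of all tested genes 0.0. Each gene passed the filter on low counts through its parent libraries.

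Reads within introns, which come largely from RNA that is not yet spliced, were lower as well. In treated cells 6 of the 7 genes had enough intron reads to be tested, and all 6 were called lower in the knockout, against 13.1% of 19908 genes called lower and 15.5% called higher. ARHGEF12, GZMA and CDHR1 passed the filter on low intron counts only through their parent libraries. MEF2C had 12, 3 and 14 intron reads in treated knockout libraries and 179, 163 and 164 in treated parent libraries, a log2 difference of -3.93 ± 0.32 (edgeR adjusted p 5.05e-09). LRP6 had 57, 64 and 72 against 586, 632 and 603 (-3.07 ± 0.14, 3.88e-13), and LRRC2 had 50, 86 and 59 against 669, 587 and 600 (-3.09 ± 0.18, 4.74e-11). For each of these genes the highest knockout library was far below the lowest parent library. ARHGEF12 had 2, 0 and 6 intron reads against 40, 45 and 57 (-3.93 ± 0.59, 2.1e-05), and CDHR1 had 4, 0 and 2 against 57, 40 and 33 (-4.17 ± 0.58, 8.11e-06). GZMA had none in the 3 treated knockout libraries against 32, 30 and 23 in the treated parent libraries, at least 24.1-fold lower (2.6e-06). PNMAL1, with 1 intron read over the treated knockout libraries and 4 over the treated parent libraries, was not tested.

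In untreated cells the intron share kept in the knockout exceeded the exon share for several genes, given here as a description. CDHR1 kept 17.1% of its intron reads and 7.44% of its exon reads, and GZMA 16.6% and 7.13%. MEF2C kept 12.6% of intron and 5.59% of exon reads, LRRC2 11.4% and 6.71%, and ARHGEF12 3.39% and 0.256%. The counting intervals of the 2 shares did not overlap for GZMA, MEF2C, LRRC2 and ARHGEF12. The untreated exon reads chose the genes, which favours a lower exon share, so nothing is read from these gaps. LRP6 kept 6.58% and 5.99%, and its intervals overlapped. With camptothecin the intervals stood apart, with the intron share higher, for LRRC2 alone (12.4% of intron and 7.11% of exon reads); GZMA, with no intron read, had its floor of 3 reads at 4.15%, below the lower end of its exon interval.

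Camptothecin changed few of the 7 genes within a genotype, and these comparisons use the untreated libraries that chose them. In parent cells 2 of 7 were lower after treatment and none higher, near the background of 17.1% of genes lower and 16.8% higher. ARHGEF12 fell to 2.5 ± 0.0856 CPM in treated parent cells, against 5.3 ± 0.868 CPM in untreated parent cells, a log2 difference of -1.08 ± 0.24 (edgeR adjusted p 0.00181). GZMA fell to 11.2 ± 0.405 CPM in treated parent cells, against 15.7 ± 0.541 CPM in untreated parent cells (-0.49 ± 0.16, adjusted p 0.0254); scaling by library size alone gave an adjusted p of 0.0966, and leaving out any 1 treated parent library or untreated parent replicate 3 gave 0.0562 to 0.0872. MEF2C had 1.72 ± 0.182 CPM in treated and 2.84 ± 0.807 CPM in untreated parent cells, which missed the threshold (-0.74 ± 0.28, adjusted p 0.0523). It passed under 7 of 20 alternatives, among them DESeq2 (adjusted p 0.026), leaving out untreated parent replicate 3 (0.0194), and leaving out treated knockout replicate 1 or 3 (0.0467 and 0.0253). LRP6, LRRC2, CDHR1 and PNMAL1 had log2 differences between -0.13 and 0.24 with adjusted p-values of 0.411 or more.

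In knockout cells 2 of 7 genes were higher after camptothecin and none lower, against 7.3% of genes called higher and 9.28% lower. The genes were chosen for low untreated knockout exon reads, which favours a rise here, so nothing is read from the count. LRP6 had 2.41 ± 0.224 CPM in treated knockout cells and 1.39 ± 0.462 CPM in untreated knockout cells. It rose by 0.8 ± 0.2 on the log2 scale (edgeR adjusted p 0.0106), and the treated and untreated libraries did not overlap. In exon reads that fall in no other gene the rise was 2.4 (adjusted p 0.000967), on the few reads given above. ARHGEF12 had 18 exon reads over the treated knockout libraries and 2 over the untreated ones, a ratio of 883% with a counting interval of 211% to 7846% (adjusted p 0.023). Both call and ratio rest on very few reads: with the knockout libraries fitted alone the adjusted p was 0.0815, and with total gene reads it was 0.131. Leaving out treated replicate 1 or 3, or untreated replicate 2 or 3, gave adjusted p-values of 0.0838 to 0.093. LRRC2 had 0.778 ± 0.127 CPM in treated and 0.842 ± 0.226 CPM in untreated knockout cells, and MEF2C, GZMA and CDHR1 had log2 differences of -0.71 to -0.48, none of which passed. Without untreated replicate 1 the GZMA difference was -0.72 with an adjusted p of 0.0459.

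Intron reads of knockout cells moved in both directions after camptothecin, with 1 of 6 genes called higher and 2 lower, against 7.85% of genes higher and 9.05% lower. LRP6 had 57, 64 and 72 intron reads in treated knockout libraries against 24, 29 and 30 in untreated ones, a rise of 1.1 ± 0.18 on the log2 scale (edgeR adjusted p 0.000201). Its exon reads rose too, but low untreated exon reads in these libraries chose the gene. GZMA had no intron read in 3 treated knockout libraries against 8, 7 and 8 in untreated ones, at least 7.82-fold lower (adjusted p 0.000706). CDHR1 had 4, 0 and 2 against 6, 17 and 7 (-2.36 ± 0.7, adjusted p 0.0191), and leaving out untreated replicate 2, or treated replicate 2 or 3, gave 0.058 to 0.14.

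The difference of the 2 responses, knockout minus parent, was called for 2 of 7 genes in exon reads, both higher, where 1.84% of all genes were higher and 4.47% lower. The untreated exon reads that chose the genes for being low in the knockout enter this difference, which favours a positive value, so nothing is read from the count. It was 0.89 ± 0.24 for LRP6 (edgeR adjusted p 0.0395) and 4.05 ± 0.9 for ARHGEF12 (0.00815). Exon reads that fall in no other gene gave 2.11 for LRP6 (adjusted p 0.0153). The LRP6 call was lost, with adjusted p-values of 0.0552 to 0.102, on leaving out any 1 treated library or untreated knockout replicate 1. In intron reads 1 of 6 genes was called higher and 1 lower, against 3% of genes higher and 2.81% lower. These were LRP6 again (0.89 ± 0.22, adjusted p 0.0158, and 0.071 without untreated knockout replicate 1) and GZMA (adjusted p 0.0186, and 0.0502 without treated knockout replicate 2), which had no intron read in treated knockout cells. LRRC2, MEF2C, CDHR1 and PNMAL1 passed in neither.

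Partners of the 7 genes in pathways and families were taken from 8 lists, with 81 genes tested. In treated knockout cells 9 were lower and 25 higher than in treated parent cells, and in untreated knockout cells 7 were lower and 24 higher than in untreated parent cells. Over all tested genes, 14.6% were lower and 13.4% higher in treated cells, and 7.44% and 8.26% in untreated cells. The lists were drawn up with earlier results of these data known. With untreated parent replicate 1 left out of the fit, 39 were higher in treated cells.

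In the Wnt receptor complex, LRP6 was low while its relative LRP5 and several receptors were high. Of 23 tested genes of that list, 7 were higher and 1 lower in treated knockout cells, and 8 higher and none lower in untreated knockout cells. Their median log2 difference was 0.16 with camptothecin and 0.15 without, against 0.0 and -0.01 over all tested genes. LRP5 had 31.5 ± 1.49 CPM in treated knockout cells against 6.58 ± 0.378 CPM in treated parent cells (2.26 ± 0.1, edgeR adjusted p 4.38e-11), and 35 ± 0.511 against 8.77 ± 1.45 CPM in untreated cells (2.01 ± 0.1, adjusted p 3.49e-10). KREMEN1, a receptor for Dickkopf proteins that removes LRP6 from the membrane, had 3.61 ± 0.418 against 0.337 ± 0.0576 CPM with camptothecin (3.41 ± 0.21) and 2.53 ± 0.293 against 0.192 ± 0.0227 CPM without (3.74 ± 0.23). The Frizzled receptors FZD2 and FZD5 were higher by 1.49 ± 0.21 and 1.39 ± 0.15 in treated knockout cells and by 1.21 ± 0.2 and 1.04 ± 0.16 in untreated ones. CSNK1A1, a kinase of the beta-catenin destruction complex, was the 1 gene lower in treated knockout cells, at -0.31 ± 0.05.

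**Figure D3:**
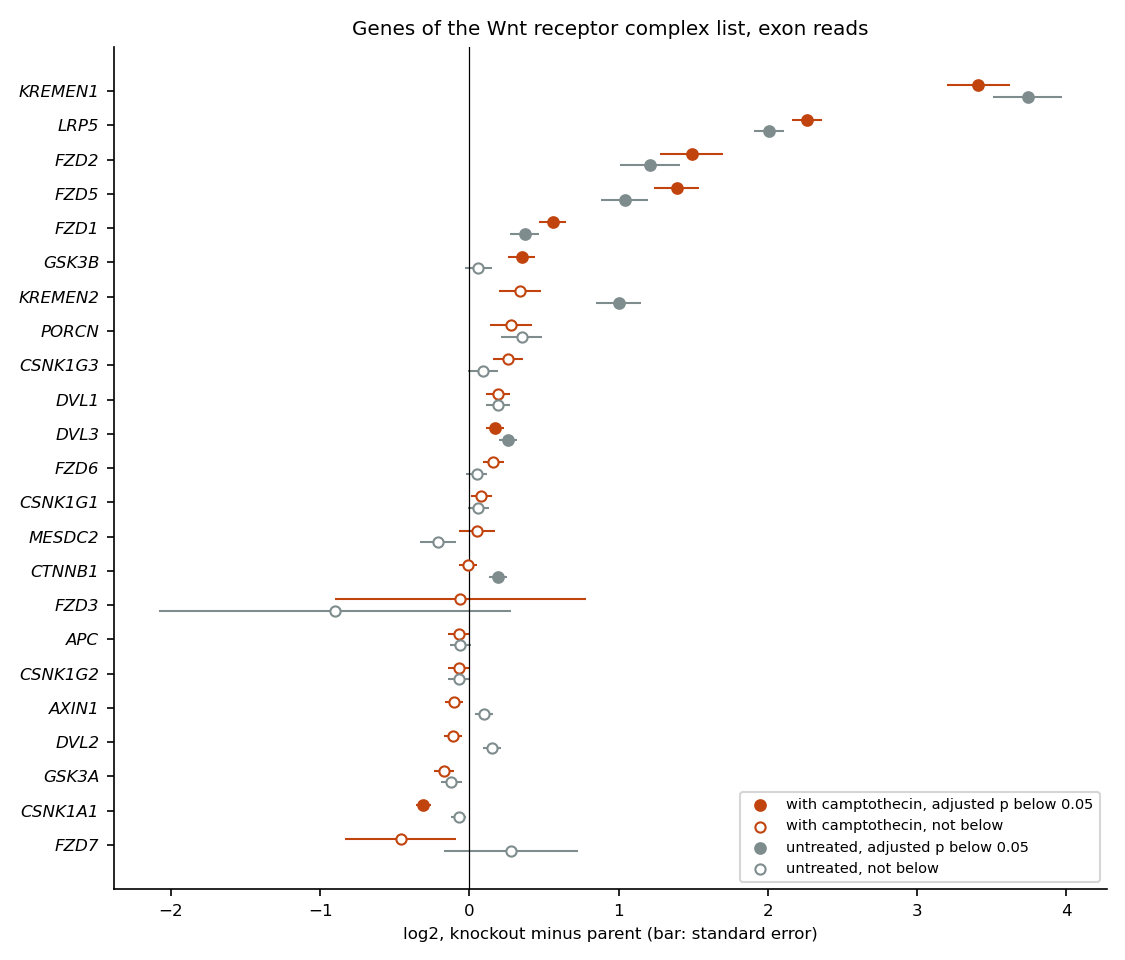
Log2 difference of knockout minus parent in exon reads for the 23 tested genes of the Wnt receptor complex list, with camptothecin above untreated for each gene; bars are standard errors and filled points passed an adjusted p of 0.05. KREMEN1, LRP5, FZD2 and FZD5 lie above 1 in both conditions, and CSNK1A1 is the 1 filled point below 0, at -0.31 with camptothecin.

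Among 10 tested Wnt effectors and targets, 6 were higher and 1 lower in treated knockout cells, and 4 higher and none lower in untreated knockout cells. ZNRF3, which removes Frizzled receptors and is itself a Wnt target, was higher by 1.5 ± 0.18 with camptothecin and by 1.42 ± 0.18 without. TCF7, a T-cell partner of beta-catenin, had 355 ± 47.1 CPM in treated knockout cells against 201 ± 3.62 CPM in treated parent cells. The feedback genes RNF43 and AXIN2 were higher by 0.43 ± 0.12 and 0.69 ± 0.23 with camptothecin, and AXIN2 missed the threshold in untreated cells (edgeR adjusted p 0.0869). The treated AXIN2 call was lost without treated parent replicate 2 or 3 or any 1 treated knockout library (adjusted p 0.0657 to 0.147), and that of RNF43 without treated parent replicate 1 (0.0559).

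Around MEF2C, the relatives MEF2A, MEF2B and MEF2D were lower in treated knockout cells by far less than MEF2C, with log2 differences of -0.45 ± 0.09, -0.6 ± 0.09 and -0.4 ± 0.09. None of the 3 passed in untreated cells. HDAC4, which represses MEF2 proteins, was higher in treated knockout cells by 0.61 ± 0.13. Of the 7 genes of that list, 3 were lower and 1 higher in treated knockout cells, and 1 lower and 1 higher in untreated knockout cells. Among transcription factors of T-cell leukemia, 2 of 6 tested genes were lower in treated knockout cells, HHEX (-0.35 ± 0.07) and LYL1 (-0.32 ± 0.07), and none higher. In untreated knockout cells HHEX (-0.55 ± 0.07), LYL1 (-0.49 ± 0.07) and LMO2 (-0.4 ± 0.08) were lower and BCL11B higher by 0.26 ± 0.07, a call lost without untreated knockout replicate 2 (edgeR adjusted p 0.0811). NKX2-5, a homeobox gene known to be active in this line, had 143 ± 13.3 CPM in treated knockout cells and 156 ± 3.68 CPM in treated parent cells (adjusted p 0.217), and 187 ± 4.54 against 169 ± 11.9 CPM in untreated cells (adjusted p 0.194).

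Receptors that act upstream of ARHGEF12 moved in both directions. Of 22 tested genes of G12/13 signalling, 7 were higher and 1 lower in treated knockout cells, and 7 higher and 2 lower in untreated knockout cells. The sphingosine phosphate receptor S1PR1 had 109 ± 3.64 CPM in treated knockout cells against 27.4 ± 0.573 CPM in treated parent cells, and 144 ± 4.49 against 38.5 ± 4.76 CPM in untreated cells. S1PR5 was higher by 2.47 ± 0.24 and 1.48 ± 0.23, and the lysophosphatidic acid receptor LPAR5 by 1.16 ± 0.18 and 0.97 ± 0.18. Named after its values were seen, S1PR3 was lower in untreated knockout cells (-0.63 ± 0.13, edgeR adjusted p 0.00207) and not called in treated ones (-0.27 ± 0.13). LPAR2 and S1PR4 were called in neither.

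Of 7 tested granule genes other than GZMA, 3 were higher and none lower in treated knockout cells, and 2 higher and 1 lower in untreated knockout cells. GZMM, another granzyme, had 27.4 ± 1.78 CPM in treated knockout cells against 15.2 ± 0.863 CPM in treated parent cells, and perforin (PRF1) 1.41 ± 0.358 against 0.646 ± 0.215 CPM. SRGN, the proteoglycan core of granules, was higher by 0.4 ± 0.1 and 0.48 ± 0.1, and the protease CTSC was lower in untreated knockout cells at -0.25 ± 0.06, with 0.03 ± 0.06 in treated cells (difference of the responses 0.28 ± 0.08, edgeR adjusted p 0.043). GZMK, another granzyme 68.1 kb from GZMA, had no exon read in any library. The nearest gene places on either side, GZMAP1 at 6.1 kb and CDC20B at 2.72 kb, had too few reads to test: GZMAP1 had 0 exon reads in treated knockout cells against 4 in treated parent cells, and 0 against 13 in untreated cells. CDC20B had 0 against 14 and 0 against 7. Of 4 tested PNMA relatives, PNMA1 was higher by 0.26 ± 0.07 and MOAP1 lower, at -0.34 ± 0.07, in treated knockout cells; the PNMA1 call was lost without treated parent replicate 2 or treated knockout replicate 3 (edgeR adjusted p 0.0574 to 0.081). PNMAL2, 15.3 kb from PNMAL1, had log2 differences of -0.54 ± 0.33 in treated and 0.74 ± 0.34 in untreated cells, neither of which passed. Of 2 tested cadherin-related genes none passed.

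The 7 genes lie on 6 chromosomes. On hg19, PNMAL1 is at chr19:46969747-46974819, ARHGEF12 at chr11:120207786-120360644, LRP6 at chr12:12268958-12419945, LRRC2 at chr3:46556912-46621588 and CDHR1 at chr10:85954409-85979376. GZMA, at chr5:54398475-54406079, and MEF2C, at chr5:88013974-88199921, are 33.6 Mb apart. Within 500 kb of them the tables list 140 other gene places, of which 69 were tested. In treated knockout cells 15 of the 69 (21.7%) were lower and 3 (4.35%) higher, where 14.6% and 13.4% of all tested genes were. In untreated knockout cells 11 (15.9%) were lower and 2 (2.9%) higher, where 7.44% and 8.26% of all tested genes were. Most of these differences were small, and the median over the neighbours was -0.2 with camptothecin and -0.07 without. Between 5 and 16 were lower in untreated cells under other settings at this distance, with 5 without untreated knockout replicate 1 and 6 without replicate 3. Leaving out treated parent replicate 1 left 9 lower in treated cells. Among the neighbours counted as lower, CTC-467M3.1 overlaps MEF2C and LUZPP1 lies inside LRRC2. They may share the reads by which MEF2C and LRRC2 were chosen, which favours a low untreated value.

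Only next to or inside LRRC2 and MEF2C did a lower neighbour pass with a log2 difference of 1 or more in untreated cells. CTC-467M3.1, a transcript that overlaps the end of MEF2C, had 0, 0 and 0 exon reads in untreated knockout libraries against 48, 14 and 9 in untreated parent libraries (edgeR adjusted p 0.00154), and 0, 2 and 0 against 12, 13 and 3 in treated ones (adjusted p 0.0203). Leaving out treated parent replicate 1 or 2, or treated knockout replicate 1 or 3, gave 0.06 to 0.0705. Reads of MEF2C and this transcript cannot be told apart where they overlap. LUZPP1, a pseudogene inside LRRC2, had 1, 8 and 11 reads in untreated knockout libraries against 60, 21 and 41 in untreated parent libraries, a difference of -2.12 ± 0.55, and -3.03 ± 0.63 in treated cells; without untreated knockout replicate 1 the untreated edgeR adjusted p was 0.0506. LTF, the nearest tested gene on the left of LRRC2 at 30.2 kb, had -2.31 ± 0.54 in untreated cells and -1.11 ± 0.55 (not passed) in treated cells. TDGF1, which overlaps LRRC2, had no exon read in knockout libraries, 20 over the treated and 28 over the untreated parent libraries, too few to test. In treated cells, and named after their values were seen, CCR2 beside LRRC2 (-3.35 ± 1.06), DUSP16 at 209 kb from LRP6 (-1.37 ± 0.09) and AC011551.3 near PNMAL1 (-2.07, edgeR adjusted p 0.0489) were also lower. None of them was called in untreated cells, with -1.6 ± 0.73, 0.04 ± 0.09 and 0.39 ± 0.71. DUSP16 had 47.9 ± 2.09 CPM in treated and 20.3 ± 1.35 CPM in untreated parent cells. Its knockout levels were 18.5 ± 2.31 and 21 ± 1.84 CPM.

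The nearest tested genes of PNMAL1, CCDC8 at 52.9 kb and PPP5D1 at 9.23 kb, had log2 differences of 0.98 ± 0.53 and 0.1 ± 0.31 in treated cells, neither called. DACT3, 176 kb from PNMAL1, was higher in treated knockout cells by 1.93 ± 0.65 and in untreated ones by 3.94 ± 0.95, with 18, 4 and 14 reads in untreated knockout libraries against 2, 1 and 0 in untreated parent libraries. The treated call was lost without treated parent replicate 2 or 3, or treated knockout replicate 1 or 2 (edgeR adjusted p 0.0863 to 0.129). ARHGEF12 had a single tested neighbour, OAF, at 107 kb, with -0.27 ± 0.18 and -0.3 ± 0.18, not called. MANSC1, 62.3 kb from LRP6, was not called, and RP11-267J23.4, a small transcript 4.54 kb on the other side, was higher in treated knockout cells by 1.25 ± 0.38, a call lost without any 1 treated parent library or treated knockout replicate 1 or 2 (edgeR adjusted p 0.0676 to 0.0899). CCNO, the nearest tested gene to GZMA, was not called, nor was LINC00461 beside MEF2C, CCDC12 beside LRRC2 or LINC00858 beside CDHR1. GHITM, 41.4 kb from CDHR1, had -0.22 ± 0.07 in treated and -0.23 ± 0.07 in untreated cells; both calls were lost under most of the libraries left out, with edgeR adjusted p-values up to 0.157 and 0.13.

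**Figure D4:**
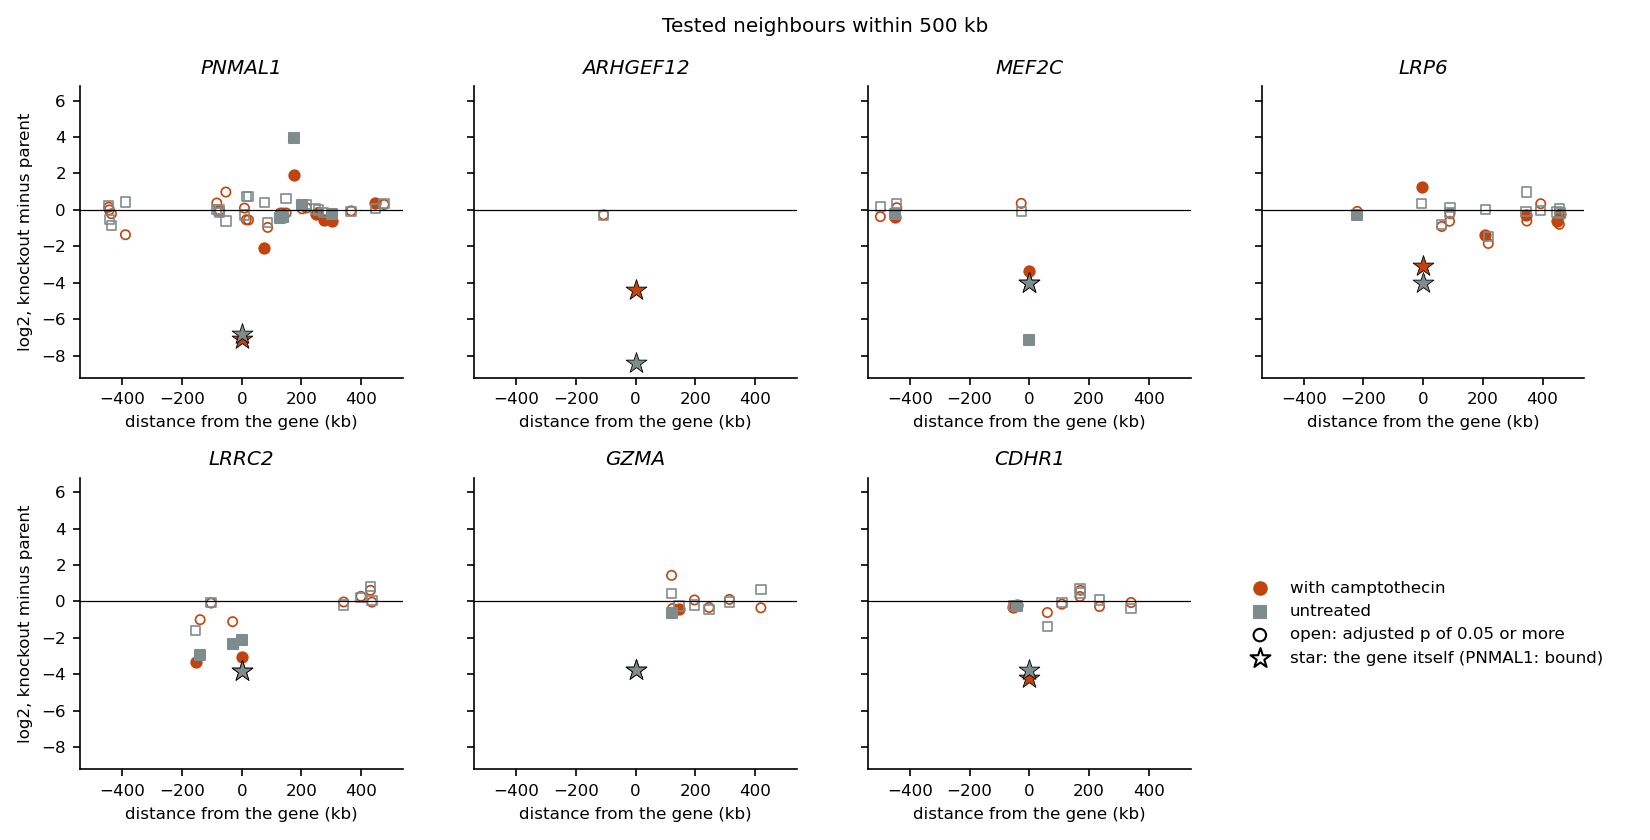
Log2 difference of knockout minus parent in exon reads for the 69 tested genes within 500 kb, by distance from each of the 7 genes (kb; 0 where they overlap). Circles are treated and squares untreated cells, filled where the adjusted p was below 0.05, and stars are the 7 genes, with a bound for PNMAL1; the lowest square beside MEF2C is a fitted value of a gene with 0 untreated knockout reads and depends on the prior count. The median neighbour lies at -0.2 with camptothecin and -0.07 without, while the stars lie at -3.1 or below.

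Among 206 genes with at least 1 CPM in untreated parent cells and a log2 difference of -1 or below in untreated knockout cells, 5 followed the mean pattern of the 7 genes over the 12 libraries most closely. SYNE1, a nuclear envelope spectrin-repeat protein, had the highest Pearson r (0.9947), with 4.24 ± 0.295 CPM in treated knockout cells against 18.4 ± 0.619 CPM in treated parent cells, and 3.54 ± 0.233 against 21.4 ± 0.251 CPM in untreated cells. RP11-192H23.5, ZNF626, SLC9A7 and KIAA0368 followed with r of 0.987 to 0.99. ZNF626 was as nearly lost as the 7 genes, with 0.0413 ± 0.0242 CPM in treated knockout cells against 2.8 ± 0.348 CPM in treated parent cells, whereas KIAA0368 kept 44.3 ± 3.35 CPM against 81.1 ± 0.716 CPM. These r values are a description: the candidates were chosen for being low in the knockout, and all share the same 12 libraries.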

How the data were processed

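RNA-seq of 12 libraries was used. Each library has a table that the authors deposited, holding whole-number counts per gene in exons, in introns, in both, and in exon parts free of other genes. The submitters' processing notes name hg19 as the build and, with no roles, STAR 2.5.4a, Picard 2.9.2, Trimmomatic 0.39 and Trim Galore 0.6.2. Names of the tables mark duplicates as removed, which can lower high counts. Which program counted, with which annotation and strand setting, is not given in the sources used here. Counts above 6 digits are rounded in the tables.

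Genes absent from 1 library's table were set to 0 there, and up to 32 Y copies of X genes per table were left out. Exon counts were fitted with edgeR 4.0.16 in R 4.3.3 (filterByExpr, TMM, robust quasi-likelihood, 1 mean per group, all 12 libraries), intron counts likewise, and adjusted over all 23546 or 19908 genes. A gene was called at an adjusted p below 0.05. SE is the unshrunken log2 difference divided by the square root of F. Shares of summed reads scale exon and intron reads alike by the exon library sizes. The fit was tested on simulated data. Alternatives used DESeq2 1.42.0, other scalings, filters and read classes, and left out each library in turn.

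The members, lists and rules were chosen with earlier results of these data known. Named were the 7 genes and SLFN11, the nearest tested neighbour on each side and neighbours called in untreated cells with a log2 difference of 1 or more, up to 4 called genes per list, the genes next to the members in rank, and the 5 most alike genes. PNMAL2, S1PR3, LPAR2, S1PR4, GZMK, GZMAP1, CDC20B, TDGF1, CCR2, DUSP16 and AC011551.3 were named after their values were seen, and some results that the rule names are not reported here. Of the marker lists, B-lineage markers (44.7 to 51.5 CPM in treated knockout libraries and 29 to 31.3 CPM in treated parent libraries), myeloid markers (at most 1.67 CPM) and erythroid markers (at most 1.25 CPM) are not described further. Same-numbered libraries did not deviate together (18 pairs, r of -0.032 to 0.043), so the numbers pair no samples.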

Additional observations from a re-analysis of the deposited data

Results flagged for a closer look

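The camptothecin response differed between knockout and parent cells, by the test of the difference itself, for LRP6, ARHGEF12 and GZMA. In exon reads 2 of 7 genes were called, both higher, where 1.84% of all genes were higher and 4.47% lower. In intron reads 1 of 6 was higher and 1 lower, where 3% and 2.81% of all genes were. LRP6 differed by 0.89 on the log2 scale in exon reads (edgeR adjusted p 0.0395) and by 0.89 in intron reads (adjusted p 0.0158): it was higher in all 3 treated knockout libraries than in all 3 untreated ones, while parent cells had log2 differences of -0.1 and 0.21. ARHGEF12 differed by 4.05 in exon reads (adjusted p 0.00815), on 18 reads in treated and 2 in untreated knockout cells, against a fall in parent cells; its intron reads gave 1.0 ± 1.04 (adjusted p 0.658). GZMA differed in intron reads with an adjusted p of 0.0186, on no read in treated and 23 in untreated knockout cells, while its exon difference was 0.01 ± 0.29. All 4 values use the untreated libraries that chose the genes, which favours a positive difference in exon reads, so they are not independent of that choice. Nothing is read from their number. With 1 library left out, the edgeR adjusted p reached 0.102 (exon) and 0.071 (intron) for LRP6, and 0.0502 for GZMA.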

How the results depend on the processing

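In treated cells the lower call of the 7 genes in exon reads and of 6 in intron reads held under every alternative run. Counts of called genes moved more, and the causes were not tested. With library size alone as the scaling, which shifted the median of all genes by 0.119 (treated knockout minus treated parent), 0.153 (knockout response) and 0.126 (parent response), 2202 genes were lower and 4982 higher in treated knockout cells, against 3430 and 3153. The same scaling gave 1073 genes lower in untreated knockout cells (1752 before), 1274 lower and 4693 higher in the knockout response (2184 and 1718), 1116 and 2656 in its intron reads (1801 and 1562), 860 higher in the difference of responses (434), and 1 of the 7 lower in the parent response (2). It also gave 6 neighbours lower and 4 higher in untreated cells (11 and 2), 9 and 5 in treated cells (15 and 3), and 44 listed genes higher in treated cells (25). With only the groups compared, 814 genes were lower in untreated knockout cells, 2647 higher in the knockout response, 1 of the 7 higher in it and 1 lower in its intron reads, 6 neighbours lower untreated, 5 higher treated, and 41 listed genes higher. Total gene reads gave 1 of the 7 lower and 1 higher in the knockout response, 781 genes higher in the difference, and 4 and 7 neighbours higher in untreated and treated cells. The difference had 778 genes higher with no filter and 817 with DESeq2, and unique exon reads left 7 neighbours lower untreated. Within 1 Mb, 18 neighbours were lower and 13 higher untreated, and 31 and 12 treated; within 250 kb, 9 were lower treated. With the replicate block, 1 of the 7 was higher in the difference in place of 2 (LRP6 0.89, edgeR adjusted p 0.0694). Leaving out 1 library gave 1010 to 2257 genes lower in untreated knockout cells, 1533 to 3524 lower and 968 to 3168 higher in the knockout response, 964 to 2248 higher in its intron reads, 726 to 2257 lower and 194 to 1282 higher in the difference, and 354 to 1016 and 329 to 1058 in its intron reads. Of the 7 genes, that gave 0 to 1 lower and 1 to 2 higher in the knockout response, 1 to 3 lower in its intron reads, 1 to 3 lower in the parent response, 1 to 2 higher in the difference, and 0 to 1 each way in its intron reads. It gave 5 to 13 neighbours lower and 1 to 4 higher untreated, 9 to 18 and 1 to 4 treated, and 20 to 39 listed genes higher. The upper ends of 3524 and 3168 in the knockout response came from leaving out untreated parent replicate 1, the deepest library. So did 2257 lower and 1282 higher in the difference, and 1016 and 1058 in its intron reads. Signs turned only for differences that were not called, except CSF1R, a myeloid marker (0.9 in untreated cells, -0.16 with total gene reads). These were LRRC2 in the knockout response (-0.11; 0.04 by library size; -0.26 to 0.12 with 1 library left out) and in the parent response (-0.12; 0.01; -0.2 to 0.01), LRP6 in the parent response (-0.1; 0.04; 0.29 with unique exon reads; -0.19 to 0.02), and CDHR1 in the knockout response (-0.54; -1.44 to 0.00). Few reads limit ARHGEF12, MEF2C and CDHR1 in knockout cells.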
